A study of Ovis aries with 16 samples.

Results

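Epoxide hydrolases and the genes of prostaglandin synthesis, sensing and breakdown were followed in the fat of adult ewes. The 10 genes were taken by symbol from the deposited count table of 28524 genes: EPHX1, EPHX2, PTGS1, PTGS2, PTGDS, PTGES, PTGER3, PTGER4, PTGFR and HPGD, and all 10 were present. They were chosen by name with earlier results of these data known, and which of the measured expression values led to the choice is not recorded. The p-values below therefore place each gene among all genes tested and are not independent evidence about the group.

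Total RNA depleted of ribosomes was sequenced in 16 libraries from female sheep 21 months old. Mothers had received bisphenol A (BPA, a plastics chemical) at 0.5 mg/kg/day in corn oil by daily injection between gestation days 30 and 90 (term is about 147 days), or corn oil alone as controls. The 4 groups of 4 libraries were visceral control, visceral BPA, subcutaneous control and subcutaneous BPA fat, where visceral fat was mesenteric fat beside the rumen and subcutaneous fat came from the sternum. All ewes were fed a maintenance diet against obesity, and all had received a pair of injections of prostaglandin F2α, the ligand of the receptor encoded by PTGFR, the last of them a day before the tissue was taken. Each library is named by the number in its title. 11 numbers occur, 5 of them in both depots, and the labels do not say that a number is an animal. Library totals ran from 11.0 to 13.11 M counts in visceral controls, 6.77 to 14.31 in visceral BPA, 4.74 to 6.22 in subcutaneous controls and 3.05 to 4.83 in subcutaneous BPA fat. All 10 fat cell markers checked (ADIPOQ, PLIN1 and others) were detected in every group, with a summed level from 13142 to 33573 CPM. Earlier results set subcutaneous controls 902 and 924 and visceral BPA library 977 apart from the rest, and they are named below beside the calls and larger estimates that move without them.

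Prostaglandins are lipid mediators made from arachidonic acid. The cyclooxygenases encoded by PTGS1 and PTGS2 form a common precursor, from which PTGDS makes prostaglandin D2 and PTGES makes prostaglandin E2. Prostaglandin E2 acts through several receptors, among them those encoded by PTGER3, which lowers cyclic AMP and restrains fat breakdown in fat cells, and PTGER4, which raises cyclic AMP. HPGD starts the inactivation of prostaglandins. The soluble epoxide hydrolase EPHX2 converts epoxides of arachidonic acid to diols, and the microsomal enzyme EPHX1 is known mainly for hydrolysing epoxides of foreign compounds.

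The called differences in these genes all lay between depots. In control ewes EPHX2, PTGER4 and PTGDS were higher in visceral than in subcutaneous fat by 6.23, 3.44 and 2.04-fold, and PTGFR, HPGD and PTGES were lower by 14.7, 5.49 and 2.23-fold. EPHX2, PTGER4, PTGDS and PTGFR also passed the test in BPA ewes, in the same directions. No gene of the 10 passed the test for BPA against control in either depot. In bulk tissue, fewer cells of a type and less RNA per cell cannot be told apart.

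The test was edgeR's quasi-likelihood test on counts, with Benjamini-Hochberg adjustment over all genes tested and an adjusted p under 0.05 as the call. Levels are CPM, the count scaled to a common library size with TMM factors over 16 libraries, as mean ± SD (n = 4). A log2 fold change is followed by ± its standard error. In control ewes 6 of the 10 genes were called, 3 higher and 3 lower in visceral fat, where 13.3% of 14456 genes were called (7.17% higher, 6.16% lower). In BPA ewes 4 of the 9 genes tested were called, 3 higher and 1 lower, against 9.07% of 13782 genes (5.13% higher, 3.94% lower). Among the genes tested, the same 6 and 4 were those whose groups did not overlap, beside 19.9% and 18.6% of all genes, and HPGD, not tested in BPA ewes, did not overlap there either. The genes were chosen with such results in view, so nothing is read from these shares. The median log2 difference over the 10 genes was 0.29 in control ewes and over the 9 genes 0.57 in BPA ewes, beside -0.01 and 0.02 over all genes tested.

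**Figure D1:**
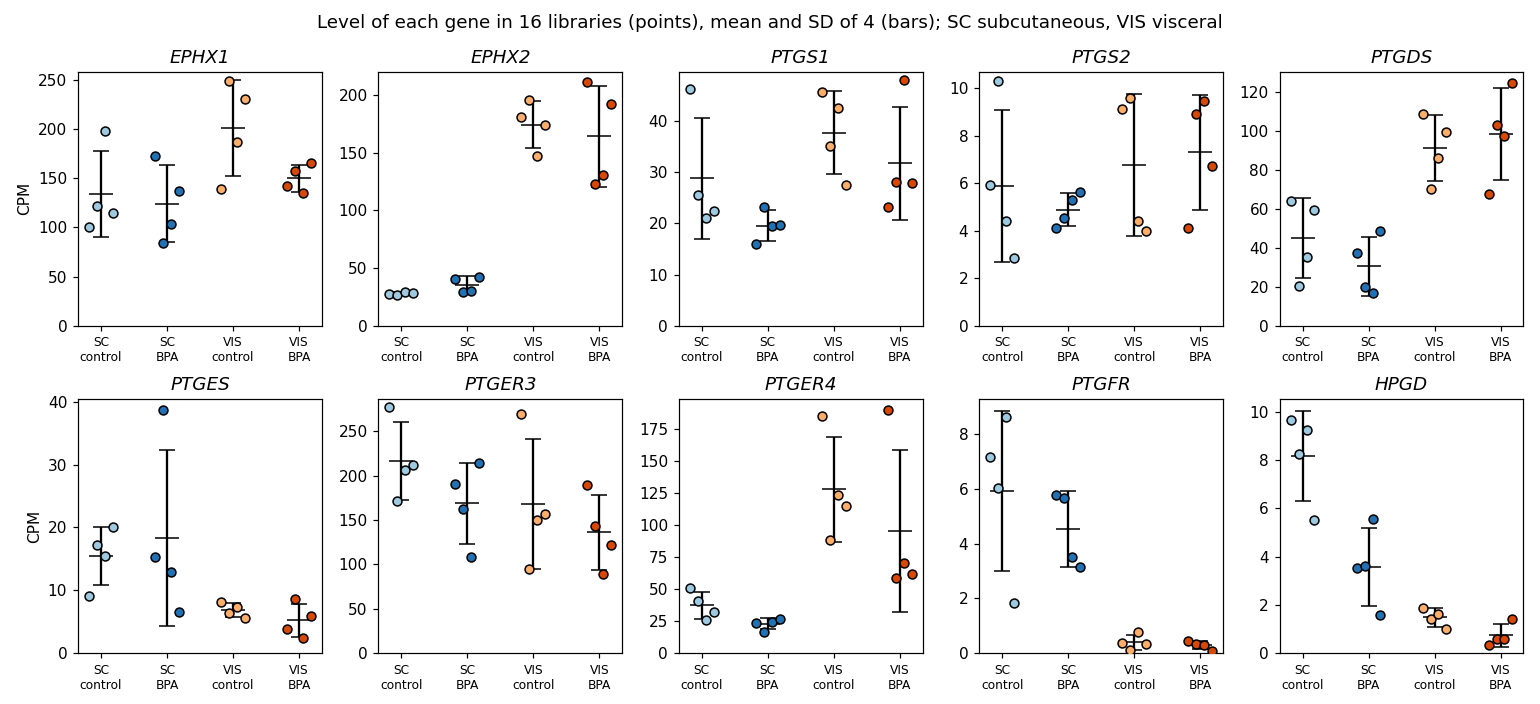
Level of each of the 10 genes in CPM (y axis, from 0) in 4 groups of 4 libraries, with 1 point per library and the mean and SD as bars (SC subcutaneous, VIS visceral). EPHX2 and PTGER4 lie higher in both visceral groups, PTGFR lies near 0 there, and EPHX1 and PTGER3 overlap between depots.

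EPHX2, the soluble epoxide hydrolase (chromosome 2, 40278778 to 40353739, minus strand, 20 exons), stood at 181, 196, 147 and 174 CPM in visceral controls 902, 908, 924 and 928. In subcutaneous controls 902, 924, 928 and 931 it stood at 27.9, 26.9, 29.2 and 28.5 CPM. The subcutaneous controls lay within a coefficient of variation of 3.44%, and no visceral library came near them. The difference was 2.64 ± 0.13 on the log2 scale (adjusted p = 2.2e-06), rank 3 by p of the 14456 genes. In BPA ewes the visceral values were 211, 123, 131 and 192 CPM in libraries 910, 918, 977 and 984, and the subcutaneous ones 40.9, 29.2, 30.2 and 42.7 CPM in 918, 922, 941 and 977. The groups again did not overlap (log2 2.19 ± 0.23, 4.58-fold, adjusted p = 0.001). Both calls passed in each omission of 1 library, with log2 values from 2.58 to 2.72 in control and 2.04 to 2.32 in BPA ewes.

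EPHX1, the microsomal epoxide hydrolase (chromosome 12, 31527268 to 31565194, plus strand), did not divide the depots in this way. It had 201 ± 48.5 CPM in visceral and 134 ± 43.8 in subcutaneous controls, with overlapping libraries, since subcutaneous control 928 reached 198 CPM and visceral control 902 only 139. The log2 difference was 0.59 ± 0.24 (adjusted p = 0.124), and it passed only when subcutaneous control 928 was left out (0.85, adjusted p = 0.0325). In BPA ewes the means were 149.6 ± 13.4 and 124 ± 38.5 CPM (adjusted p = 0.454).

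Scaled by exon length (RPKM, here CPM per kilobase of exon), EPHX1 was 3.8 to 7.17 times EPHX2 in the subcutaneous controls and 3.07 to 4.45 times in the subcutaneous BPA libraries. In visceral fat the ratio was 0.812 to 1.4 in controls and 0.71 to 1.35 in BPA libraries. The 8 subcutaneous ratios therefore lay above all 8 visceral ones, a description of the values already given for EPHX2.

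**Figure D2:**
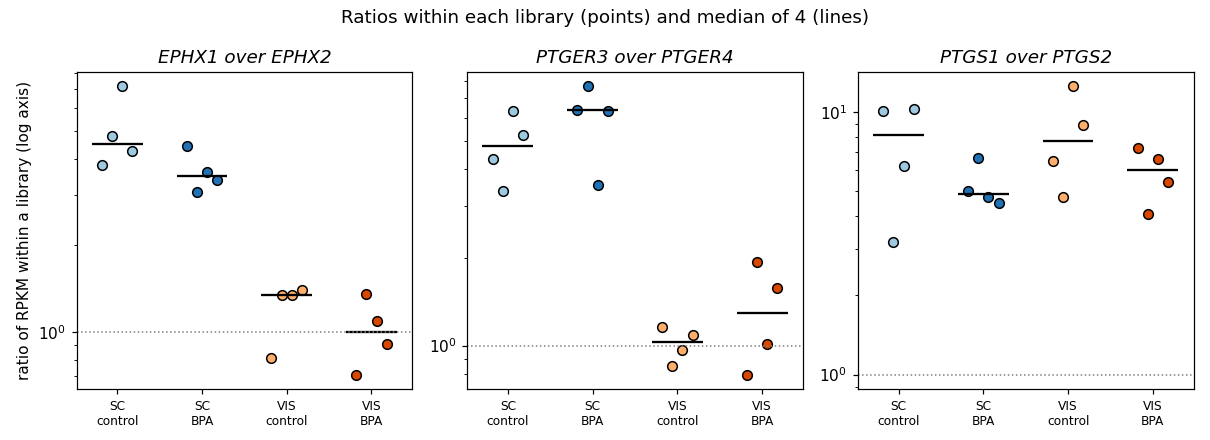
Ratio of RPKM values within each library (y axis, log scale) for EPHX1 over EPHX2, PTGER3 over PTGER4 and PTGS1 over PTGS2, with points for libraries and lines for the median of 4. The first 2 ratios are lower in visceral libraries without overlap, while PTGS1 over PTGS2 overlaps among all 4 groups, from 3.2 to 12.5.

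The cyclooxygenase genes did not pass the depot test. PTGS1, the constitutive enzyme (chromosome 3, 13938380 to 13963047, minus strand), had 37.7 ± 8.1 CPM in visceral and 28.9 ± 11.8 in subcutaneous controls (log2 0.39 ± 0.26, adjusted p = 0.331). Subcutaneous control 902 stood at 46.3 CPM against 21.0 to 25.5 in the other 3, and without it the difference was 0.71 (adjusted p = 0.0419). In BPA ewes PTGS1 had 31.8 ± 11.0 against 19.5 ± 3.02 CPM (log2 0.70 ± 0.25, adjusted p = 0.0994), with visceral library 977 highest at 48.0 CPM.

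PTGS2, the inducible cyclooxygenase (chromosome 12, 72745679 to 72753302, minus strand), was low in all groups, with means from 4.89 to 7.3 CPM. Its depot difference was 0.20 ± 0.43 in control ewes (adjusted p = 0.793) and 0.57 ± 0.33 in BPA ewes (adjusted p = 0.299). Control number 924 differed from the others, with 10.3 CPM in its subcutaneous and 4.41 in its visceral library. Per length, PTGS1 exceeded PTGS2 in all 16 libraries, by 3.2 to 12.5 times.

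The genes of the terminal synthases went opposite ways. PTGDS, which makes prostaglandin D2 (chromosome 3, 913651 to 916655, minus strand, 753 bases of exon), had 109, 70.5, 86.0 and 99.7 CPM in visceral controls 902, 908, 924 and 928. It had 64.1, 20.7, 35.5 and 59.6 CPM in subcutaneous controls 902, 924, 928 and 931. The lowest visceral value lay just above the highest subcutaneous one. The call in control ewes was narrow (log2 1.03 ± 0.30, adjusted p = 0.0432). It was lost without visceral control 902, 908, 924 or 928 or subcutaneous control 924 or 928 (highest adjusted p 0.105), and without subcutaneous controls 902 and 924 together (0.93, adjusted p = 0.0547).

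In BPA ewes PTGDS had 67.7, 103, 97.7 and 125 CPM in visceral libraries 910, 918, 977 and 984. The subcutaneous libraries 918, 922, 941 and 977 had 37.4, 19.7, 16.7 and 48.8 CPM. All visceral values were higher (3.19-fold, log2 1.67 ± 0.33, adjusted p = 0.0144). The call was lost without subcutaneous BPA library 922 (1.51, adjusted p = 0.051).

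PTGES, the inducible prostaglandin E2 synthase (chromosome 3, 6925111 to 6936716, plus strand), was the reverse of PTGDS. Visceral controls 902, 908, 924 and 928 had 8.12, 6.44, 7.34 and 5.62 CPM, and subcutaneous controls 902, 924, 928 and 931 had 9.05, 17.2, 15.4 and 20.1 CPM. Every visceral control lay below every subcutaneous one, the closest being both libraries of 902 (log2 -1.16 ± 0.26, adjusted p = 0.0158). The call passed in all 8 omissions of 1 library (highest adjusted p 0.0492) but not in the fit of all 16 libraries (adjusted p = 0.0997).

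In BPA ewes PTGES varied more. The subcutaneous values were 15.3, 38.6, 12.9 and 6.52 CPM in 918, 922, 941 and 977, and the visceral ones 3.80, 8.56, 2.40 and 5.96 CPM in 910, 918, 977 and 984. The groups overlapped, since visceral library 918 exceeded subcutaneous library 977, and edgeR did not call the gene (log2 -1.81 ± 0.53, adjusted p = 0.0565). DESeq2 did (adjusted p = 0.00744), as did edgeR with no filter (0.0413) and in the fit of all 16 libraries (0.0128). Without subcutaneous library 922 the value was -1.15 (adjusted p = 0.205), and without 977 it was -2.09 (adjusted p = 0.0411).

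Of the prostaglandin E2 receptors, only PTGER4 passed the depot test. PTGER4 (chromosome 16, 35503653 to 35516824, minus strand) had 185, 88.1, 123 and 115 CPM in visceral controls 902, 908, 924 and 928. The subcutaneous controls 902, 924, 928 and 931 had 50.5, 40.5, 25.9 and 32.2 CPM. The groups did not overlap (log2 1.78 ± 0.25, adjusted p = 0.00181).

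In BPA ewes visceral library 910 stood far above the rest of its group for PTGER4, at 189.6 CPM against 58.8, 70.5 and 61.9 in 918, 977 and 984. The subcutaneous BPA libraries had 23.7, 16.7, 24.4 and 26.7 CPM. The difference was 4.15-fold (log2 2.05 ± 0.38, adjusted p = 0.0121), and without library 910 it was 1.47 on the log2 scale (adjusted p = 0.00664).

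PTGER3 (chromosome 1, 49060497 to 49291472, minus strand) was among the most abundant of the 10 genes and had a small depot difference. It had 168 ± 73.5 CPM in visceral and 217 ± 43.7 in subcutaneous controls (log2 -0.36 ± 0.27, 95% interval -0.96 to 0.23, adjusted p = 0.396). In BPA ewes it had 136 ± 42.0 and 169 ± 45.6 CPM (adjusted p = 0.467). Control 902 was the highest library in both depots, at 269.9 and 277 CPM. Per length, PTGER3 was 3.37 to 6.33 times PTGER4 in subcutaneous controls and 0.853 to 1.16 times in visceral controls. In BPA libraries the ratio was 3.53 to 7.7 in subcutaneous and 0.796 to 1.93 in visceral fat.

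PTGFR, the receptor of prostaglandin F2α (chromosome 1, 59050113 to 59114293, plus strand), was close to the limit of detection in visceral fat. Visceral controls 902, 908, 924 and 928 held 4, 1, 9 and 4 counts, and visceral BPA libraries 910, 918, 977 and 984 held 4, 3, 2 and 1. The sum of 18 counts in visceral controls has an exact 95% Poisson interval of 10.7 to 28.4, which covers counting error only. In CPM the visceral controls lay between 0.0948 and 0.777. The shallower subcutaneous control libraries 902, 924, 928 and 931 held 46, 35, 55 and 9 counts, or 7.18, 6.04, 8.63 and 1.84 CPM. Subcutaneous control 931 was thus the lowest of its group but above every visceral library (log2 -3.87 ± 0.60, adjusted p = 0.00297). In control and BPA ewes alike, PTGFR passed the filter on low counts (minimum count 10) through its subcutaneous libraries alone. Its depot calls are therefore not independent of that difference.

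In BPA ewes PTGFR had 5.78, 5.65, 3.52 and 3.15 CPM in subcutaneous libraries 918, 922, 941 and 977. The visceral BPA libraries lay between 0.0754 and 0.447 CPM (15.5-fold lower, log2 -3.95 ± 0.56, adjusted p = 0.00443). Both calls passed in each omission of 1 library.

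HPGD, the inactivating dehydrogenase (chromosome 2, 114729075 to 114764712, plus strand), had 1.87, 1.42, 1.64 and 0.978 CPM in visceral controls 902, 908, 924 and 928. Subcutaneous controls 902, 924, 928 and 931 had 9.67, 8.28, 9.26 and 5.53 CPM. Visceral values were lower without overlap (log2 -2.46 ± 0.32, adjusted p = 0.00117), and the call passed in all 8 omissions of 1 library. In BPA ewes visceral libraries 910, 918, 977 and 984 had 0.335, 0.57, 0.6 and 1.43 CPM, and subcutaneous libraries 918, 922, 941 and 977 had 3.51, 3.62, 5.58 and 1.57. Visceral values were lower here too, though visceral library 984 came close to subcutaneous library 977. The filter on low counts left HPGD out of that comparison. With no filter its difference was -2.19 ± 0.64 (adjusted p = 0.0544), and in the fit of all 16 libraries -2.19 ± 0.47 (adjusted p = 0.0057).

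**Figure D3:**
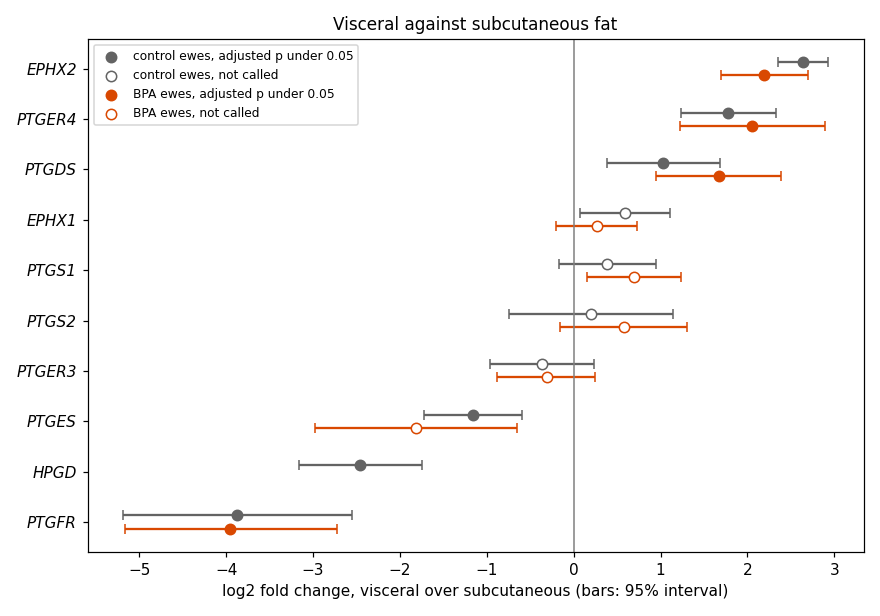
Log2 fold change of visceral over subcutaneous fat (x axis) for each gene in control ewes (grey) and BPA ewes (orange), with 95% intervals from edgeR as bars and filled points for adjusted p under 0.05. EPHX2, PTGER4 and PTGDS lie to the right and PTGFR to the left in both, and HPGD has no point in BPA ewes because the filter left it out.

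The same libraries were also compared within each number found in both depots, which is not separate evidence. Only the control numbers 902, 924 and 928 were taken as pairs, and the BPA numbers 918 and 977 were not. EPHX2, PTGDS and PTGER4 were higher in the visceral library for 5 of 5 numbers, by 1.59 to 2.7, 0.76 to 2.05 and 1.31 to 2.15 on the log2 scale. PTGES, PTGER3, PTGFR and HPGD were lower for 5 of 5, by -1.45 to -0.16, -1.25 to -0.04, -4.73 to -2.96 and -3.24 to -1.39. EPHX1, PTGS1 and PTGS2 went both ways. EPHX2 was 5.46 to 6.5-fold higher for control numbers 902, 924 and 928, and 3.01 and 3.06-fold higher for BPA numbers 918 and 977. The difference between both depot contrasts, which is the same quantity as the difference between both BPA effects, was -0.44 ± 0.25 for EPHX2 over all 16 libraries and did not pass (adjusted p = 0.892).

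**Figure D4:**
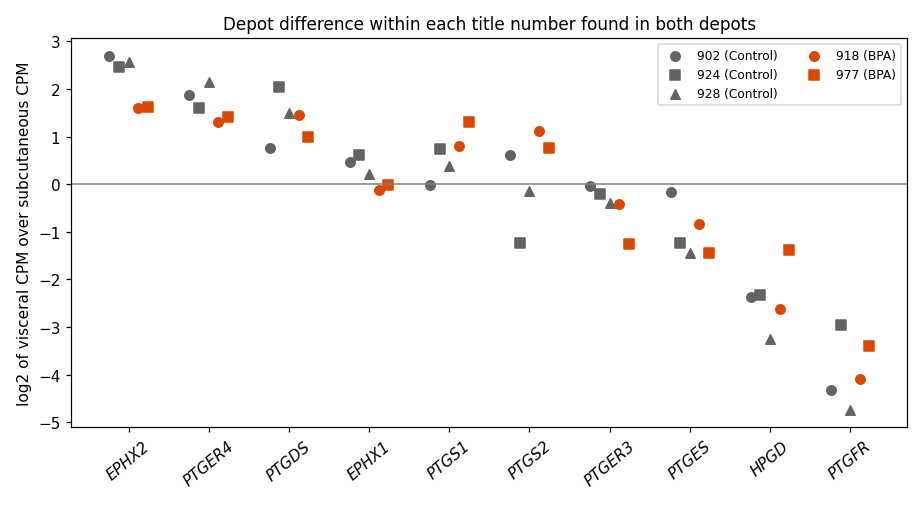
Log2 of visceral over subcutaneous CPM (y axis) for each gene (x axis) within the 5 title numbers found in both depots, grey for control and orange for BPA. All 5 points lie above 0 for EPHX2, PTGER4 and PTGDS and below 0 for PTGER3, PTGES, HPGD and PTGFR. The BPA numbers were not taken as pairs.

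Markers of other cell types also differed between the depots, and their part in these results was not tested. The summed level of 11 mesothelial markers was 86.6 to 198 CPM in visceral and 13.8 to 57.7 CPM in subcutaneous controls, with 6 of 8 tested members higher in visceral fat and LRRN4 at 0 in every subcutaneous library. In BPA libraries it was 42.9 to 383 and 10.6 to 24.2 CPM. The 10 progenitor and stromal markers summed to 1986 to 2304 CPM in visceral and 2299 to 3006 in subcutaneous controls, with 3 of 10 lower in visceral fat. Mast cell markers summed to 32.9 to 52.4 and 82.0 to 142 CPM in the same groups, with 3 of 6 tested members lower in visceral fat. In BPA libraries the mast cell sums overlapped, at 29.0 to 59.1 and 41.6 to 62.5 CPM, with 0 of 4 called. The progenitor and stromal sums overlapped there too, at 1797 to 2430 and 2233 to 3212 CPM, with 2 of 9 called lower. In BPA ewes 10 macrophage markers summed to 554 to 1194 CPM in visceral and 335 to 541 in subcutaneous fat, without overlap and with 3 of 10 called higher. In control ewes those sums overlapped (816 to 976 and 627 to 863 CPM, 1 of 10 higher). In controls, smooth muscle markers (8 genes) summed to 813 to 1573 and 588 to 799.8 CPM, with 0 of 8 called. In BPA libraries these sums overlapped, at 1067 to 4376 and 847 to 1228 CPM. In controls 4 red blood cell markers summed to 3.84 to 5.69 and 1.23 to 1.72 CPM, with HBM at 0 throughout. That sum was mostly ALAS2 (3.3 to 5.59 and 1.21 to 1.72 CPM), and HBB reached at most 0.605 and 0.172 CPM. Visceral libraries were also deeper. After thinning every library to 3046126 counts, EPHX2, PTGER4, PTGDS, PTGES and HPGD were still called in control ewes (highest adjusted p 0.0416, for PTGDS), and PTGFR no longer had enough counts to be tested. In BPA ewes the thinned libraries gave calls for EPHX2, PTGER4, PTGDS and PTGFR.

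Ranked per length, PTGDS led in both visceral groups (121 ± 22.1 RPKM in controls, 130.4 ± 31.2 in BPA libraries), and EPHX1 led in both subcutaneous groups (65.2 ± 21.3 and 60.4 ± 18.7). PTGFR was last in all 4 groups, at 1.08 ± 0.531 RPKM in subcutaneous and 0.0708 ± 0.0518 in visceral controls. PTGES stood above EPHX2 in the subcutaneous means (15.8 ± 4.79 against 12.9 ± 0.445 RPKM in controls) but far below it in visceral ones (7.04 ± 1.11 against 80.3 ± 9.48). In subcutaneous BPA fat the means (18.8 ± 14.4 against 16.4 ± 3.24) were in that order through library 922 alone, at 39.6 RPKM for PTGES. PTGES was below EPHX2 in BPA libraries 918, 941 and 977 and in control 902.

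The 4 group means by CPM were put in order for each gene. This only describes genes chosen with earlier results known, and how many of all genes are ordered by depot was not counted. EPHX1, EPHX2, PTGS1, PTGS2, PTGDS and PTGER4 had both visceral groups first, and PTGES, PTGER3, PTGFR and HPGD both subcutaneous groups first. For PTGER3 the subcutaneous BPA and visceral control means were nearly equal, at 169 and 168 CPM. Neighbours in that order that differ only in BPA exposure overlapped for all 10 genes, while 7.45% of all genes in subcutaneous and 4.02% in visceral fat did not overlap between BPA and control. Between depots, 19.9% of all genes in control ewes and 18.6% in BPA ewes did not overlap. Neighbours in this order were not compared over all genes. Between the neighbouring groups of different depots there was no overlap for EPHX2, PTGDS, PTGER4, PTGES and PTGFR. EPHX1, PTGS1, PTGS2 and PTGER3 overlapped there. HPGD did too, because subcutaneous BPA library 977 (1.57 CPM) fell among the visceral controls. For PTGES the neighbours were the control groups. Subcutaneous BPA library 977 (6.52 CPM) fell among the visceral controls (5.62 to 8.12 CPM) for that gene as well. Within BPA ewes PTGES overlapped between depots and HPGD did not.

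The comparison of BPA with control asks what prenatal exposure left changed in the adult depots. None of the 10 genes was called in subcutaneous fat, where 0.709% of 13535 genes were called, and none of the 9 tested in visceral fat, where edgeR called 0% of 14774 genes. Unadjusted p-values were under 0.05 for 14.2% of genes in subcutaneous fat and 7.47% in visceral fat. DESeq2 called 464 genes in subcutaneous and 5 in visceral fat, and none of the 10 genes was among them. HPGD in subcutaneous fat lay just over its threshold (DESeq2 log2 -1.22, adjusted p = 0.0512). Estimates were below 0 for 8 of 10 genes in subcutaneous fat (median -0.37, all genes -0.01) and for 7 of 9 in visceral fat (median -0.30, all genes 0.00).

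HPGD had the largest estimate in both depots with all libraries included. In subcutaneous fat it stood at 8.19 ± 1.86 CPM in controls and 3.57 ± 1.64 in BPA libraries (log2 -1.21 ± 0.37, 95% interval -2.02 to -0.41, adjusted p = 0.183). The groups met at control 931 (5.53 CPM) and BPA library 941 (5.58 CPM). In visceral fat it had 1.48 ± 0.382 and 0.735 ± 0.48 CPM (log2 -0.94 ± 0.54, adjusted p = 0.673), on sums of 67 and 31 counts. That value was -1.55 without BPA library 984 and -0.72 without BPA library 910, where the PTGER4 estimate was the larger.

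PTGER4 in subcutaneous fat had 37.3 ± 10.7 CPM in controls and 22.9 ± 4.31 in BPA libraries (log2 -0.70 ± 0.23, 95% interval -1.20 to -0.20, adjusted p = 0.208). Control 928 (25.9 CPM) lay below BPA library 977 (26.7 CPM). Without controls 902 and 924 the estimate was -0.33 (adjusted p = 0.588). PTGS1 had 28.9 ± 11.8 and 19.5 ± 3.02 CPM (log2 -0.56 ± 0.26, adjusted p = 0.356). That estimate rested largely on control 902, being -0.23 without it (adjusted p = 0.785) and -0.15 without 902 and 924 (adjusted p = 0.806). EPHX2 had 28.1 ± 0.967 and 35.7 ± 7.03 CPM (log2 0.35 ± 0.16, interval 0.00 to 0.70, adjusted p = 0.348). Its BPA libraries fell into a lower pair (922 and 941) and a higher pair (918 and 977), and the lower pair met the controls.

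In visceral fat the smallest unadjusted p belonged to EPHX1, with 201 ± 48.5 CPM in controls and 149.6 ± 13.4 in BPA libraries (log2 -0.43 ± 0.19, 95% interval -0.84 to -0.01, adjusted p = 0.658). PTGER4 had 128 ± 41.1 and 95.2 ± 63.1 CPM (log2 -0.42 ± 0.38, adjusted p = 0.757). Its estimate moved with single libraries, to -1.004 ± 0.243 without BPA library 910 (adjusted p = 0.392) and to -0.19 without control 902 (adjusted p = 0.922). PTGS1 had -0.24 ± 0.25 (adjusted p = 0.776), and -0.52 without BPA library 977 (adjusted p = 0.989). PTGFR was too low to be tested there. The intervals of the remaining genes span 0 and reach at most 1.25 in size on the high side and 1.40 on the low side over both depots. Differences within those intervals were not excluded by these data, with 4 libraries a group.

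Markers of other cell types moved beside these estimates in subcutaneous fat, and their part was not tested. The summed level of 10 macrophage markers was 335 to 541 CPM in BPA libraries and 627 to 863 in controls, with 1 of 10 called lower. Mast cell markers (7 genes) summed to 41.6 to 62.5 and 82.0 to 142 CPM (0 of 5 tested called), and smooth muscle markers to 847 to 1228 and 588 to 799.8 CPM (1 of 8 called higher). The sums of the 10 progenitor and stromal markers overlapped, at 2233 to 3212 and 2299 to 3006 CPM, while their median log2 difference was -0.65 and 1 of 10 was called lower. In visceral fat the macrophage sums overlapped, at 554 to 1194 and 816 to 976 CPM. Subcutaneous BPA libraries were shallower than controls, and after thinning the HPGD and PTGER4 estimates were -1.06 (adjusted p = 0.221) and -0.72 (adjusted p = 0.193).

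**Figure D5:**
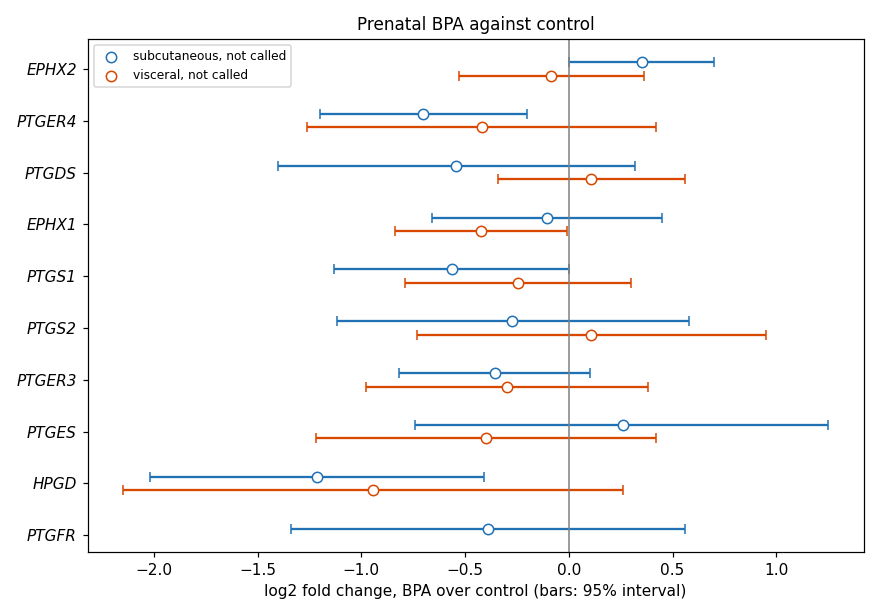
Log2 fold change of BPA over control (x axis) for each gene in subcutaneous (blue) and visceral fat (orange), with 95% intervals from edgeR; open points mark genes not called, which is all of them. HPGD has the lowest estimates (-1.21 and -0.94), and PTGFR has no visceral point because too few counts were left.

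The BPA effect was also compared between depots, in a fit of all 16 libraries. No gene of the 10 differed (smallest adjusted p 0.892, for EPHX2), and of 14793 genes edgeR called 0%. Unadjusted, 6.2% of them had p under 0.05. DESeq2 called 11 genes there, none of them among the 10. The largest differences were 0.65 ± 0.48 for PTGDS and -0.65 ± 0.62 for PTGES.

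The wider eicosanoid pathway was followed with a list of 56 other genes, of which 44 were in the table. In control ewes 10 of 39 tested genes were called between depots (5 higher and 5 lower in visceral fat; median log2 -0.10), and in BPA ewes 4 of 34 (3 higher, 1 lower; median 0.18). These are 25.6% and 11.8% of the genes tested, beside 13.3% and 9.07% of all genes. ZADH2, a reductase that acts on prostaglandin metabolites, was lower in visceral fat in both (24.5 ± 1.5 against 42.2 ± 2.7 CPM in controls, adjusted p = 0.00373; 19.7 ± 3.0 against 38.4 ± 3.18 in BPA ewes, adjusted p = 0.00991). PTGES3, the co-chaperone p23 and cytosolic prostaglandin E2 synthase, was higher in both, by 1.74-fold (adjusted p = 0.00993) and 2.18-fold (adjusted p = 0.031). It thus went against PTGES in control ewes.

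PTGFRN, a membrane protein that can lower ligand binding to the receptor encoded by PTGFR, was lower in visceral controls, as was that receptor (20.5 ± 5.26 against 72.1 ± 20.4 CPM, adjusted p = 0.00134). In BPA ewes it had 23.9 ± 14.4 and 48.5 ± 9.38 CPM (adjusted p = 0.0932). PTGIR, the prostacyclin receptor, was higher in visceral fat of control ewes (14.4 ± 0.999 against 7.74 ± 1.85 CPM, adjusted p = 0.0187) and of BPA ewes (30.5 ± 22.1 against 7.18 ± 2.78, adjusted p = 0.0236). Visceral BPA library 977 stood at 63.0 CPM for PTGIR, against 24.9, 19.3 and 14.9 in 910, 918 and 984. ALOX5, the first enzyme of leukotriene synthesis, was 3.41-fold lower in visceral controls (adjusted p = 0.00551), with 7.14 ± 1.83 against 24.5 ± 11.2 CPM. ALOX15, a lipoxygenase, passed in BPA ewes (36.6 ± 20.8 against 2.85 ± 2.11 CPM, adjusted p = 0.00663). In control ewes it did not (adjusted p = 0.47). There subcutaneous controls 902 and 924 had 28.9 and 59.9 CPM, against 2.04 and 1.43 in 928 and 931. Pathway genes were not followed through the omission of libraries.

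For BPA against control, 0 of 34 pathway genes were called in subcutaneous fat and 0 of 40 in visceral fat. Estimates were below 0 for 27 of the 34 (median -0.29) and for 25 of the 40 (median -0.20). The smallest adjusted p was 0.104 in subcutaneous fat, for PTGIS, the prostacyclin synthase (log2 -0.64 ± 0.16). HPGDS, the prostaglandin D2 synthase of mast cells and other blood-derived cells, had -1.86 ± 0.52 there (adjusted p = 0.15).

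Over the 16 libraries, the genes whose log2 CPM followed EPHX2 most closely were TCF21, BARX1 and CUX1 (Pearson r = 0.975, 0.974 and 0.97). For PTGFR they were ZFHX4, STEAP4 and IRX2 (0.938, 0.936 and 0.936), for HPGD MAN1A1, EDEM1 and PITX1 (0.94, 0.906 and 0.897), and for PTGER4 EFEMP1, SKAP2 and MBNL3 (0.95, 0.938 and 0.936). These are descriptions over libraries that share depot, depth and in part title numbers, and carry no test. With group means removed, SNAI2 was closest to PTGES (0.965) and EXOC3L2 to PTGS1 (0.912), and both also led over the 16 libraries without that step (0.926 and 0.904).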

How the data were processed

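The authors deposited 1 table of whole-number counts per gene with a column of exon lengths in bases. The submitters' processing notes name FastQC 0.11.5, MultiQC 0.9, the aligner STAR 2.6.0c and the counter featureCounts (Subread 1.6.1). The table is named as normalized, but 0 of its values are not whole and library totals differ from 3046126 to 14305764, so they were used as raw counts. Whether counting used strand, and on which annotation release, is not given in the sources used here. Positions are those of the deposited table, whose sequence accessions are those of the Rambouillet assembly Oar_rambouillet_v1.0. Chromosome numbers were assigned by shared gene symbols in the RefSeq table of ARS-UI_Ramb_v3.0. No exon of the 10 genes overlaps another gene's exon on either strand in the deposited table. Promoter and protein sequences were not used here.

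Genes were filtered with filterByExpr (minimum count 10, minimum total 15). Libraries were scaled by TMM, and two-sided tests were made in edgeR 4.0.16 in R 4.3.3 (glmQLFit, glmQLFTest; Benjamini-Hochberg). BPA was compared with control in each depot and depots within each treatment on 8 libraries each, and the difference between BPA effects on 16. Each standard error is the log2 estimate over the root of its F value. Fits were tested on simulated counts. Alternatives were DESeq2 1.42.0, its size factors, no filter, a filter of 50 counts in 4 libraries, a threshold of 0.10, all 16 libraries in 1 fit, the title number as a block, omission of each library and, added after the data were seen, thinning to 3046126 counts and omission of subcutaneous controls 902 and 924 together.

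The members, the pathway list and the marker lists were chosen with earlier results of these data known. The genes named were all 10 members, at most 4 called pathway genes per comparison by smallest p (PTGIS and HPGDS were added after their values were seen), and the 3 genes of highest Pearson correlation with a member, given for part of them. The labels do not say whether libraries of a group came from separate animals, so p-values measure the spread between these libraries. Title numbers were checked by the correlation of deviations from group means over 14793 genes. It was 0.287, 0.40 and 0.332 for control numbers 902, 924 and 928, which were taken as pairs, and 0.167 and 0.031 for BPA numbers 918 and 977. Among subcutaneous libraries of the same treatment, each of those control visceral libraries correlated best with its own number. Visceral library 918 did so as well, while 977 correlated best with 941. The main tests used no title number, also for the control numbers taken as pairs.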

Additional observations from a re-analysis of the deposited data

Results flagged for a closer look

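In 64 groups of 4 libraries (10 members and 6 named pathway genes in 4 groups each), 2 held a library far from the other 3, where chance flags about 1 in 20. PTGER4 stood at 189.6 CPM in visceral BPA library 910, against 58.8 to 70.5 CPM in the other visceral BPA libraries. ALOX5 stood at 22.6 CPM in subcutaneous BPA library 941, against 12.6 to 13.8 CPM in the other subcutaneous BPA libraries.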

How the results depend on the processing

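The depot calls of EPHX2, PTGER4, PTGFR and, in control ewes, HPGD passed under every alternative that tested them. The PTGDS and PTGES calls in control ewes were lost in the fit of all 16 libraries (adjusted p = 0.0643 and 0.0997). Depth limits PTGFR and HPGD in visceral fat, with at most 9 and 21 counts in a library. The count of called genes for BPA in subcutaneous fat was 96, and 464 by DESeq2, 173 with no filter, 54 with the filter of 50 counts, 216 at a threshold of 0.10, 46 with all 16 libraries, 0 without controls 902 and 924 together, and 32 to 128 over omissions of 1 library. In visceral fat it was 0, and 5 by DESeq2. Between depots in control ewes it was 1928, and 3062 at 0.10, 1138 without subcutaneous controls 902 and 924, and 1043 to 1755 over omissions. In BPA ewes it was 1250, and 2197 by DESeq2, 2312 at 0.10, 2408 with all 16 libraries, and 369 to 2206 over omissions. For the difference between BPA effects it was 0, and 11 by DESeq2.

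With the title number as a replicate block, 2631 genes were called between depots in control ewes, where PTGS2 turned to -0.246, and 892 in BPA ewes. In BPA ewes, whose numbers were not taken as pairs, the block gave EPHX1 -0.074, EPHX2 1.605, PTGS1 1.06 (adjusted p = 0.0381) and PTGER3 -0.83 (adjusted p = 0.0412). In the difference between BPA effects it gave PTGFR 0.058. Without subcutaneous controls 902 and 924, PTGS2 had 0.419 for BPA in subcutaneous fat, and PTGS1 -0.092, PTGS2 -0.307 and PTGER4 -0.08 for the difference between BPA effects. The cause of these changes was not tested.

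Estimates that changed sign when 1 library was left out were all uncalled. For BPA in subcutaneous fat the omissions ranged from -0.292 to 0.145 (EPHX1), -0.488 to 0.145 (PTGS2) and -0.404 to 0.551 (PTGES). In visceral fat they ranged from -0.235 to 0.033 (EPHX2), -0.075 to 0.32 (PTGS2), -0.034 to 0.246 (PTGDS) and -0.508 to 0.023 (PTGER3). Between depots in control ewes PTGS2 ranged from -0.015 to 0.609. For the difference between BPA effects the ranges were -0.014 to 0.439 (PTGS1), -0.033 to 0.597 (PTGS2), -0.986 to 0.015 (PTGES), -0.148 to 0.383 (PTGER3), -0.302 to 0.514 (PTGER4), -0.396 to 0.465 (PTGFR) and -0.332 to 0.554 (HPGD).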

Other observations

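With group means removed, the members varied with each other in few pairs. Over the 16 libraries the highest Pearson correlations of these deviations were 0.611 for PTGER3 with PTGER4 and 0.492 for PTGDS with PTGER3, and the lowest was -0.634 for EPHX1 with PTGS1. EPHX1 and EPHX2 had 0.399, and PTGS1 and PTGS2 had 0.445. These 16 points share depth and in part title numbers, and no test was made. PTGDS, PTGES and PTGS1 lie on chromosome 3, and PTGDS and PTGES had opposite depot differences there. On chromosome 2, EPHX2 and HPGD did as well.

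The summed levels of the other marker lists overlapped between depots in control and in BPA libraries or were low. In subcutaneous controls, subcutaneous BPA, visceral controls and visceral BPA libraries, in that order, lymphocyte markers summed to 88.5 to 247, 46.6 to 103, 86.4 to 119 and 70.8 to 208 CPM. Fat cell markers summed to 13142 to 26793, 16289 to 27418, 23859 to 33573 and 17649 to 28267 CPM. Of these, 1 of 10 was called higher in visceral fat in control ewes (median log2 0.515) and 0 of 10 in BPA ewes (0.028). Their part in the depot results was not tested. Endothelial markers summed to 1818 to 2915, 1652 to 2465, 2870.4 to 3142 and 2367 to 2695 CPM. Nerve and Schwann cell markers summed to 129 to 389.8, 150.4 to 262, 335 to 708 and 186 to 451 CPM. Skeletal muscle markers summed to 41.0 to 84.2, 51.6 to 334, 20.3 to 65.6 and 28.9 to 303 CPM. TNNT3 reached 321 CPM in subcutaneous BPA and DES, also a smooth muscle marker, 279 CPM in visceral BPA libraries. In subcutaneous BPA fat ACTA1, CKM and MYH2 reached 43.6, 22.3 and 21.1 CPM, with medians of 0.25, 0.407 and 0.103. Muscle tissue in a library was not tested. Epithelial markers summed to 2.2 to 9.98 and 1.35 to 3.82 CPM in the subcutaneous groups, with KRT5 at 0 in every library.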
